A study of Homo sapiens with 39 samples.

Results

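A set of 9 genes of glucose sensing, glucose transport, glycolysis and glucose production was followed in HepaRG™ cells: TXNIP, ARRDC4, SLC2A1, SLC2A2, HK2, PKLR, LDHA, PCK1 and G6PC. They were chosen by name, as the 9 rows of the RPM table that carry these symbols, out of 20802 gene targets. No filter on measured values was used, though earlier results of these data were known when they were chosen. HepaRG™ is an established human hepatoma line whose differentiated cultures hold both cells resembling hepatocytes and cells resembling cholangiocytes. Differentiated cells were kept for 7 days and then dosed once a day, 3 times in all, with RNA taken 7 h after the last dose (55 h of exposure). The 30 treated libraries covered 10 chemicals at a low, mid and high concentration, and 9 libraries were vehicle controls (4 DMSO, 4 media and 1 water).

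The DNA damage-inducing (DDI) chemicals were aflatoxin B1 (AFB1; 0.25, 1 and 2.5 µM), cisplatin (CISP; 2, 5 and 10 µM), etoposide (ETP; 0.5, 2.5 and 10 µM) and 2-nitrofluorene (2NF; 10, 50 and 250 µM) in DMSO, and methyl methanesulfonate (MMS; 50, 100 and 200 µM) in water. The non-DDI chemicals were colchicine (COL; 0.05, 0.1 and 0.3 µM) in DMSO, and 2-deoxy-D-glucose (2DG; 1.25, 5 and 10 mM), ampicillin trihydrate (AMP; 1, 3 and 10 mM), sodium ascorbate (ASC; 1, 2 and 10 mM) and sodium chloride (NaCl; 1, 2.5 and 10 mM) in media. AFB1 and COL shared 1 DMSO control, and every other chemical had a control of its own, so that the 3 concentrations of a chemical were always set against the same library. RNA of 3 cultures was pooled into 1 library, so a single condition has no replicate check and the spread between cultures was not measured. Vehicle and class were nearly confounded, since no DDI chemical was given in media. The glucose content of the medium is not given in the sources used here. Total counts ranged from 8504699 to 16425527 per library (median 11202013). Of 10 hepatocyte markers none was under 1 RPM (the count scaled to a common library total) in every library, whereas 4 of 7 cholangiocyte markers (KRT7, EPCAM and CFTR among them) were, and KRT19, SOX9 and SPP1 carried the signal of that list. In such bulk libraries fewer cells of a type and less RNA per cell cannot be told apart.

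Cells read glucose largely through its phosphorylated form. Glucose 6-phosphate activates the paired transcription factors MondoA (MLXIP) and ChREBP (MLXIPL), which bind with MLX to carbohydrate response elements, a pair of E-box-like motifs. The arrestins TXNIP and ARRDC4 are their best known targets and restrain glucose uptake, and in liver ChREBP also drives PKLR, the pyruvate kinase of hepatocytes. 2DG is a glucose analogue that is phosphorylated by hexokinase and is hardly metabolized further, so it both blocks glycolysis and mimics the sugar phosphate signal. HK2 and the ubiquitous transporter SLC2A1 (GLUT1) are typical of proliferating cells, whereas SLC2A2 (GLUT2), PKLR, PCK1 and G6PC are typical of hepatocytes. PCK1 and G6PC catalyse the entry and exit steps of gluconeogenesis, the latter releasing free glucose from the liver. LDHA converts pyruvate to lactate and, with SLC2A1 and HK2, is a textbook target of the hypoxia-inducible factor.

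The sequences upstream of 3 members known as ChREBP or MondoA targets are shown, so that the places where such motifs do and do not occur can be read. They are the 250 bases before the transcription start in the RefSeq promoter table (GRCh38.p14), 5′ to 3′ on the strand of the gene, and capitals mark the motif found. RefSeq windows were matched for 8 of the 9 members (12 windows, G6PC under its current symbol G6PC1), and PCK1 was not among them. Both strands were searched for the E-box CACGTG, a palindrome, and for the carbohydrate response element CACGNG followed by 5 bases of any kind and CACGNG. The inverted form, CACGNG followed by 5 bases and CNCGTG, reads alike on both strands and was added to the search after the sequences were seen. TXNIP has 2 windows on the minus strand. The one shown, at chr1:145996580-145996829, has its element 88 bases before the start. The other, at chr1:145995745-145995994, holds none of these motifs and is not shown. The ARRDC4 window lies at chr15:97960453-97960702 on the plus strand, with an E-box 210 bases before the start. PKLR has 2 windows on the minus strand, of which the upstream one, at chr1:155301439-155301688, has an E-box 197 bases before its start and the downstream one, at chr1:155300953-155301202, has the inverted form 126 bases before its start.
TXNIP: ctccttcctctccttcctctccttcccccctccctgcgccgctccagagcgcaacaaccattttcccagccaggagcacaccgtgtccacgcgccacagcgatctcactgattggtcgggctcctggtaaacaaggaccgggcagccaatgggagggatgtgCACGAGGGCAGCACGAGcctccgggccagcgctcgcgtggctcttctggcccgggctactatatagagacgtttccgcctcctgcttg
ARRDC4: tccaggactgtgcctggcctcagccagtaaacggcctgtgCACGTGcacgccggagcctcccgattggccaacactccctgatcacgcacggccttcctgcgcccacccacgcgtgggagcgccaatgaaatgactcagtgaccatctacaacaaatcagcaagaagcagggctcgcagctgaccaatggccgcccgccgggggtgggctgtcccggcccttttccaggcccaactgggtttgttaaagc
PKLR, upstream window: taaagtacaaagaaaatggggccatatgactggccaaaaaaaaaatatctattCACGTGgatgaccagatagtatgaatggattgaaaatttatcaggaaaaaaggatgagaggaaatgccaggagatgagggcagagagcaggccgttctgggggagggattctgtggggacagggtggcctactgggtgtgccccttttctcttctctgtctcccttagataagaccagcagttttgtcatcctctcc
PKLR, downstream window: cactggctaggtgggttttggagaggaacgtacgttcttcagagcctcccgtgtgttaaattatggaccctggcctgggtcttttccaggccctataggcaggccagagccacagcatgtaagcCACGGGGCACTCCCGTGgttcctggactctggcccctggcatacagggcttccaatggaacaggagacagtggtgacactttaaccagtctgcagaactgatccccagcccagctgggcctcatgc
The direct element was found in 1 of the 12 member windows, the TXNIP window shown, and in 16 of 35116 windows of all genes (0.0456%). The inverted form was found in 1 member window, the downstream one of PKLR, and in 7 of all windows (0.0199%). An E-box was found in 4 member windows (ARRDC4, PKLR, HK2 and LDHA, the last 2 with a pair of them each, in LDHA 185 and 87 bases before the start) and in 6.34% of all windows. A match is a description of these letters and not evidence of binding, and a window without a match says only that the letters are not in it.

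In the vehicle controls each member had its own level, and levels are not compared between genes because each gene was read through 1 amplicon. SLC2A1 lay between 196 and 472 RPM and LDHA between 757 and 1141 RPM in the 9 controls. TXNIP lay between 11.6 and 30.6 RPM, G6PC between 5.66 and 18.2 RPM and PKLR between 3.57 and 9.01 RPM. ARRDC4 (1.12 to 3.04 RPM), HK2 (0.793 to 1.73 RPM) and PCK1 (0.66 to 5.71 RPM) were low, and SLC2A2 was at the edge of detection with 0 to 12 counts in the 39 libraries (median 4). Controls of 1 vehicle already differed. On the scale of log2(RPM + 1), which understates the change of low genes, the largest difference between 2 DMSO controls was 1.63 for PCK1, 1.52 for G6PC and 1.05 for SLC2A1, and between 2 media controls it was 1.20 for TXNIP. A ratio of a single condition is to be read against that spread. Below, 2-fold always refers to this scale, and ratios of RPM itself that passed 2-fold without reaching it are named as such, except for SLC2A2.

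**Figure D1:**
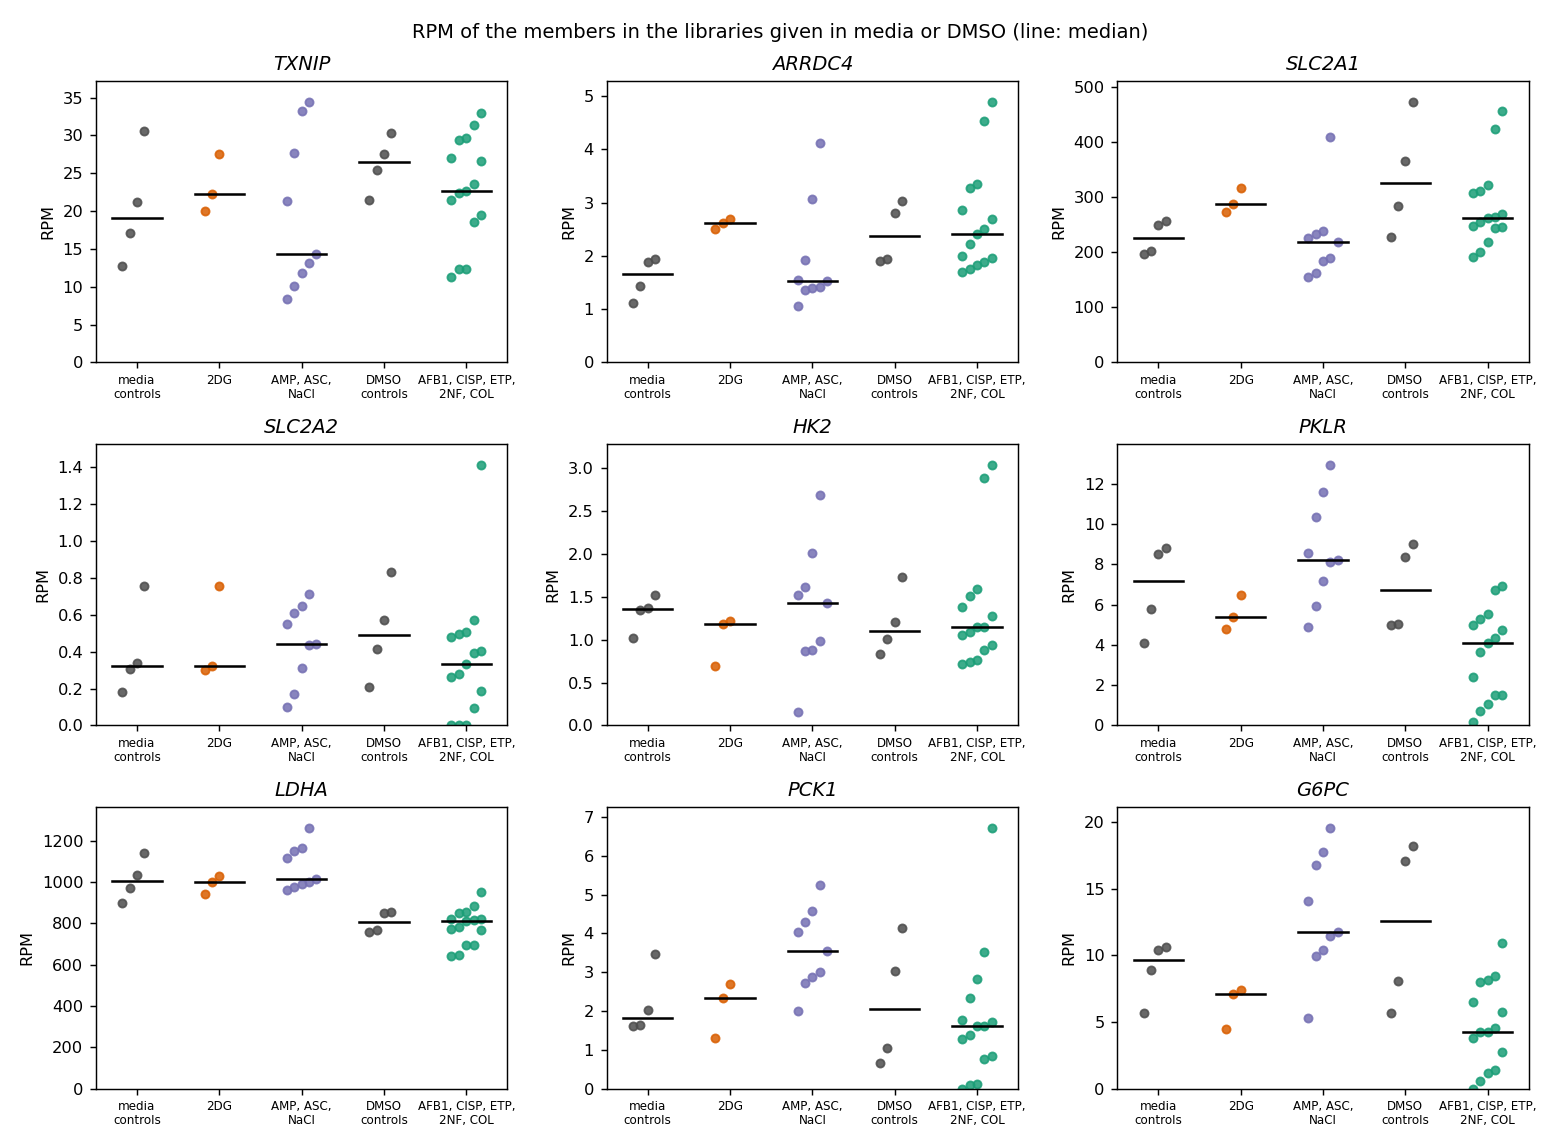
RPM of the 9 members (linear axes from 0) in the 4 media controls, the 3 2DG libraries, the 9 libraries of AMP, ASC and NaCl, the 4 DMSO controls and the 15 libraries of AFB1, CISP, ETP, 2NF and COL. Points are libraries and lines are medians, the MMS libraries and their water control are left out. The 2DG points of ARRDC4 (2.51 to 2.69 RPM) and SLC2A1 (273 to 316 RPM) lie above all media controls, and those of TXNIP lie within them.

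TXNIP, the arrestin that binds thioredoxin and lowers glucose uptake, was read first in 2DG. Its level was 17.1 RPM in the 2DG control and 20.0, 22.3 and 27.6 RPM at 1.25, 5 and 10 mM. The log2 ratio was thus 0.21, 0.37 and 0.66, each above 0 and none reaching a 2-fold difference. The 4 media controls held 12.8, 17.1, 21.2 and 30.6 RPM, so all 3 2DG libraries fell inside the range of untreated libraries. ARRDC4, the close relative of TXNIP in glucose sensing, was at 1.43 RPM in the 2DG control and at 2.61, 2.69 and 2.51 RPM in 2DG (27 to 31 counts per library). The other media controls held 1.12, 1.89 and 1.93 RPM, so that the groups did not overlap. SLC2A1, which brings glucose across the plasma membrane, was at 316, 273 and 287 RPM in 2DG and at 257, 196, 202 and 249 RPM in the media controls, again without overlap. These were the 2 of 9 members whose 2DG and media libraries did not overlap, where 6.23% of the 12790 genes with a mean of at least 1 RPM did not.

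The 3 2DG libraries were compared with the 4 media controls on the deposited counts with edgeR's quasi-likelihood test. The 3 concentrations are not replicates of 1 condition, so the p measures the spread over concentrations and controls. The log2 difference, 2DG minus media, was 0.66 for ARRDC4 (SE 0.257, edgeR adjusted p = 0.99), 0.34 for SLC2A1 (SE 0.125, edgeR adjusted p = 0.99) and 0.15 for TXNIP (SE 0.270, edgeR adjusted p = 0.99). ARRDC4 and SLC2A1 were the 2 of 8 members tested with an unadjusted p under 0.05, and neither passed the correction over 13129 genes. No gene of the table did so in either direction (0.0% called), with 594 genes (4.52%) at an unadjusted p under 0.05 and 5 genes called by DESeq2, none of them a member. The TXNIP difference changed sign, to -0.0109, when the NaCl control (12.8 RPM, the lowest of the media controls) was left out. G6PC, PKLR, HK2, PCK1 and LDHA had point estimates below 0, at -0.52, -0.32, -0.38, -0.08 and -0.06, with an edgeR adjusted p of 0.99 for each. Hepatocyte markers moved beside these values. All 10 had a log2 difference below 0 (median -0.50), of which CYP3A4 was at -1.29 and TTR at -0.93, and none passed the adjusted threshold in edgeR (4 at an unadjusted p under 0.05). Against their own control, the hepatocyte markers of the 2DG libraries averaged -0.07, -0.09 and -0.16. The part of the hepatocyte markers in the 2DG values was not tested.

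The same question was put with the chemical as the unit, as the response to 2DG minus the average response to the other 9 chemicals. At the high concentration 2DG had the highest log2 ratio of the 10 chemicals for TXNIP and PKLR. For every gene 1 of the 10 chemicals ranks highest. The share of all genes with 2DG highest or lowest was not counted at any concentration, so these ranks are descriptions. TXNIP was at 0.66 in 2DG, whereas the other chemicals ranged from -1.23 (COL) to 0.62 (AMP). PKLR was at 0.55 in 2DG, whereas the other chemicals ranged from -2.98 to 0.41. The 2DG control was the lowest of the 4 media controls for PKLR (4.09 to 8.82 RPM). All 3 2DG libraries (4.80 to 6.47 RPM) lay inside that range, so this ratio depends on the control chosen. The edgeR difference was 0.95 for TXNIP (SE 0.624), 1.68 for PKLR (SE 1.37), 1.92 for G6PC (SE 1.85), 0.59 for ARRDC4 (SE 0.582) and 0.42 for SLC2A1 (SE 0.533). All 9 members were tested here and none was called, nor was any of 13916 genes (0.0% called, 270 or 1.94% at an unadjusted p under 0.05, none by DESeq2). The large values of PKLR and G6PC came with 2DG ratios of only 0.55 and 0.28, and with means of -0.97 and -1.55 over the other 9 chemicals. With the vehicle in place of the matched control as the block, G6PC was at -0.07 and PKLR at 0.16. With 1 library for 2DG the standard errors were wide. They were above 1 log2 unit for PKLR, G6PC, PCK1 and SLC2A2. For TXNIP, ARRDC4, SLC2A1 and HK2 they lay between 0.533 (SLC2A1) and 0.716 (HK2). A response of 2-fold was thus within the error for each of these members, and only LDHA had a narrower one (SE 0.308). At the mid concentration 2DG was highest or lowest of the 10 chemicals for no member, and the differences ran from -1.02 (HK2 and PCK1) to 1.22 (PKLR). At the low concentration 2DG was highest for TXNIP, SLC2A1 and SLC2A2, the last with 9 counts. No member passed there (smallest adjusted p = 0.745, edgeR), with 98 of 13955 genes (0.702%) at the mid and 1024 of 13923 genes (7.35%) at the low concentration under an unadjusted p of 0.05, and no gene called there by edgeR (0.0%) or DESeq2. With the vehicle as the block the differences at these concentrations ranged widely, and over all alternatives PKLR ran from -0.35 to 1.48 and G6PC from -1.05 to 0.87 at the mid concentration and TXNIP from -0.05 to 0.39 at the low one.

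**Figure D2:**
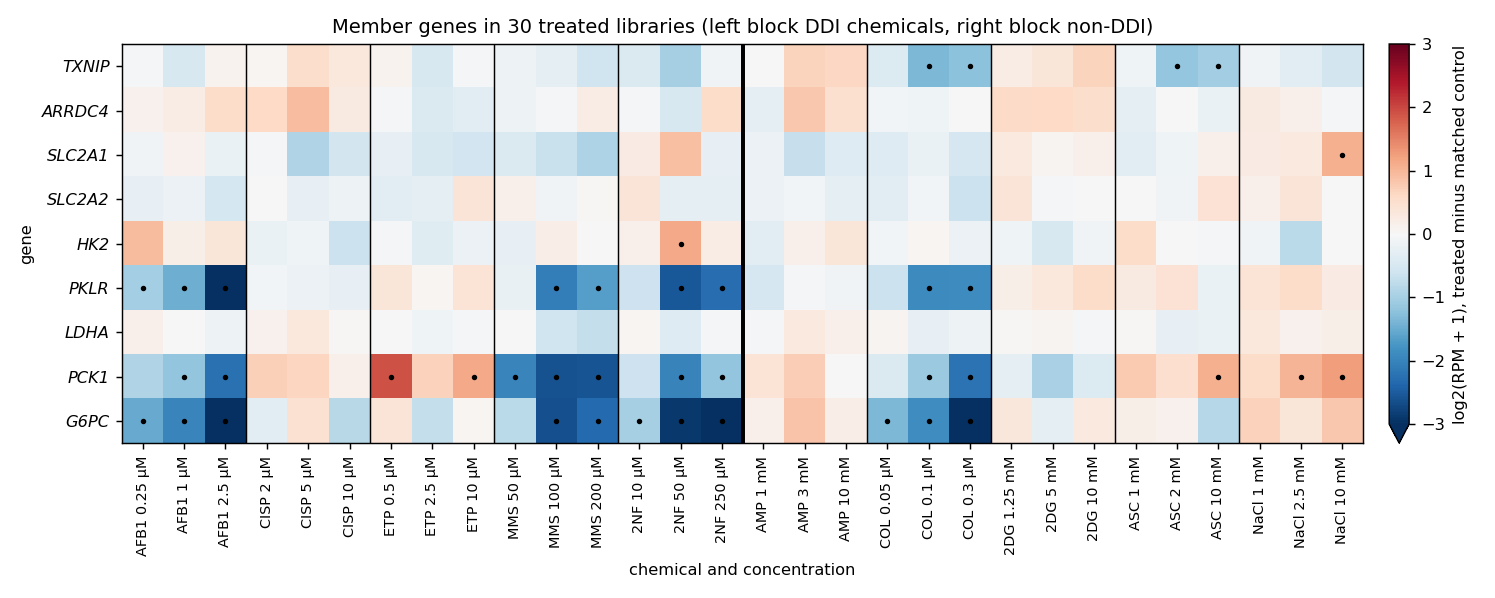
Log2 ratio of the 9 members (rows) in the 30 treated libraries (columns), as log2(RPM + 1) in the treated library minus that in its matched control. Colours run from -3 to 3 and black dots mark ratios of at least 2-fold. Most dots lie in PKLR, PCK1 and G6PC under AFB1, MMS, 2NF and COL, and the 2DG columns hold none.

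Outside 2DG, TXNIP was at least 2-fold lower in 4 of 30 conditions and never 2-fold higher, where 1.69% of all gene-condition values were 2-fold lower and 1.61% higher. These were COL at 0.1 and 0.3 µM (11.3 and 12.4 RPM against 30.3 RPM in the control) and ASC at 2 and 10 mM (13.2 and 14.3 RPM against 30.6 RPM), where 1.38%, 4.64%, 0.633% and 1.13% of genes were 2-fold lower. The ASC control was the highest of the media controls, and both ASC libraries lay inside the range of the media controls, so this difference depends on the control chosen. The COL libraries lay below all DMSO controls (21.5 to 30.3 RPM), as did 2NF at 50 µM (12.3 RPM against 25.4 RPM), which was 2.07-fold lower in RPM and at -0.99 on the log2 scale. Such a place was not particular to them, since TXNIP lay below the controls of its vehicle in 12 of 30 conditions. Among the DMSO chemicals these also held 1 library of AFB1 (21.48 RPM), 1 of ETP (19.5 RPM) and another of 2NF (18.6 RPM). At 10 mM AMP, TXNIP was at 33.2 RPM and at 3 mM AMP at 34.4 RPM, above all media controls. In NaCl it was at 11.8, 10.1 and 8.39 RPM at 1, 2.5 and 10 mM, below every media control, though its own control was the lowest of them. ARRDC4 reached no 2-fold ratio on the log2(RPM + 1) scale in any condition. Its highest log2 ratio was 0.93 in CISP at 5 µM (4.54 RPM against 1.90 RPM, 2.39-fold in RPM), followed by 0.81 in AMP at 3 mM (4.12 RPM against 1.93 RPM, 2.14-fold in RPM). Over the 30 conditions the log2 ratios of TXNIP and ARRDC4 had a Pearson correlation of 0.647, a description over conditions that share controls. The 5 genes most like TXNIP among those with a mean of at least 10 RPM were COX5A (0.789), BCKDHA, KIAA0040, LPIN3 and ATP1B1 (0.739). Those most like ARRDC4 included DNPEP (0.747), ATP6V0D1 (0.721), ESRRA (0.709) and LEPREL4 (0.701).

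PKLR, G6PC and PCK1, the 3 hepatocyte enzymes of the set, had most of the large ratios. G6PC was at least 2-fold lower in 11, PKLR in 9 and PCK1 in 9 of 30 conditions, and all of these values belonged to AFB1, MMS, 2NF and COL. The share of all genes that were 2-fold lower at the low, mid and high concentration was 0.18%, 0.618% and 3.07% in AFB1, 0.532%, 7.51% and 5.71% in MMS, 0.469%, 4.14% and 3.33% in 2NF and 0.274%, 1.38% and 4.64% in COL. G6PC, the last step of glucose release, was at 18.2 RPM in the control of AFB1 and at 5.77, 3.83 and 0 RPM at 0.25, 1 and 2.5 µM. No read was found at 2.5 µM, so the level was at least 64.8-fold lower (floor of 3 counts in that library, counting error only). In COL, with the same control, it was at 6.51, 4.27 and 0.542 RPM. In 2NF it was at 17.1 RPM in the control and at 8.02, 1.43 and 1.15 RPM at 10, 50 and 250 µM. The G6PC levels at the low concentration of AFB1, COL and 2NF lay inside the range of the DMSO controls (5.69 to 18.2 RPM). The control shared by AFB1 and COL was the highest of these, so the ratios at the low concentration depend on the control chosen. In MMS it was at 6.35 RPM in the water control and at 3.22, 0.176 and 0.451 RPM at 50, 100 and 200 µM. The levels at 100 and 200 µM MMS rest on 2 and 4 counts, with ratios of 0.0277 (95% interval 0.0033 to 0.1035) and 0.0711 (0.0189 to 0.1893), and so cannot be put in order.

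PKLR, which makes pyruvate in the last step of glycolysis, was lower in the same 4 chemicals. It was at 8.38 RPM in the shared control, at 3.66, 2.42 and 0.187 RPM in AFB1 and at 5.01, 1.49 and 1.52 RPM in COL. In 2NF it was at 9.01 RPM in the control and at 5.54, 0.714 and 1.05 RPM, and in MMS at 3.57 RPM in the control and at 2.92, 0.088 and 0.451 RPM. At 2.5 µM AFB1 and 100 µM MMS these levels rest on 2 and 1 counts, with ratios of 0.0223 (95% interval 0.0027 to 0.0825) and 0.0246 (0.0006 to 0.145). PCK1, which commits carbon to gluconeogenesis, was at 4.15 RPM in the shared control, at 1.78 (2.34-fold lower in RPM only), 1.28 and 0.094 RPM in the 3 AFB1 libraries and at 2.81, 1.39 and 0.108 RPM in those of COL. In MMS it was at 5.71 RPM in the control and at 0.705, 0.088 and 0.113 RPM, and in 2NF at 3.04 RPM in the control and at 1.62, 0 and 0.767 RPM. The PCK1 levels at 2.5 µM AFB1, 0.3 µM COL and 100 and 200 µM MMS rest on 1 count each. Their ratios were 0.0225 (95% interval 0.0006 to 0.1305) in AFB1, 0.0261 (0.0007 to 0.1514) in COL, and 0.0154 (0.0004 to 0.0886) and 0.0198 (0.0005 to 0.1136) in MMS. At 50 µM 2NF no PCK1 read was found, so the level was at least 11.3-fold lower (floor of 3 counts in that library). Of the 2-fold lower PCK1 values, those at 1.28 RPM in AFB1, 1.39 RPM in COL and 0.767 RPM in 2NF lay inside the DMSO control range. That range was 0.66 to 4.15 RPM with the shared control highest, so these ratios depend on the control chosen. All intervals cover counting error only.

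None of the other 6 chemicals had a 2-fold lower value of these 3 genes on the log2(RPM + 1) scale. In RPM, PCK1 was 2.69-fold lower in 2DG at 5 mM (13 counts against 51 in the control) and G6PC 2.05-fold lower in CISP at 10 µM (2.78 RPM against 5.69 RPM). In NaCl, G6PC was at 17.8, 14.1 and 19.6 RPM and PKLR at 11.6, 12.9 and 10.4 RPM, above all 4 media controls (at most 10.7 and 8.82 RPM). PCK1 was 2-fold higher in 5 conditions, ETP at 0.5 and 10 µM, ASC at 10 mM and NaCl at 2.5 and 10 mM, where 1.14%, 1.02%, 4.06%, 0.109% and 0.407% of genes were 2-fold higher. In ETP it was at 6.72, 2.34 and 3.53 RPM against 1.06 RPM in the control, and the 4 DMSO controls themselves spanned 0.66 to 4.15 RPM, so that 1 of the 3 ETP libraries lay above them. In RPM, PCK1 was also between 2.01-fold (AMP at 3 mM) and 2.59-fold (CISP at 2 µM) higher in CISP at 2 and 5 µM, ETP at 2.5 µM, ASC at 1 mM and AMP at 3 mM. In 2DG, G6PC was at 7.41, 4.48 and 7.12 RPM, PKLR at 4.80, 5.38 and 6.47 RPM and PCK1 at 2.69, 1.30 and 2.35 RPM, with matched control levels of 5.66, 4.09 and 3.48 RPM. Among the 4 media controls that control was the lowest for G6PC and PKLR and the highest for PCK1. None of these 9 values in 2DG reached 2-fold on the log2(RPM + 1) scale, where PCK1 at 5 mM was at -0.96, nor did any of the 27 member values in 2DG. At 1.25, 5 and 10 mM, 3.43%, 0.125% and 0.274% of genes were 2-fold lower and 0.0782%, 0.117% and 0.0313% were 2-fold higher.

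**Figure D3:**
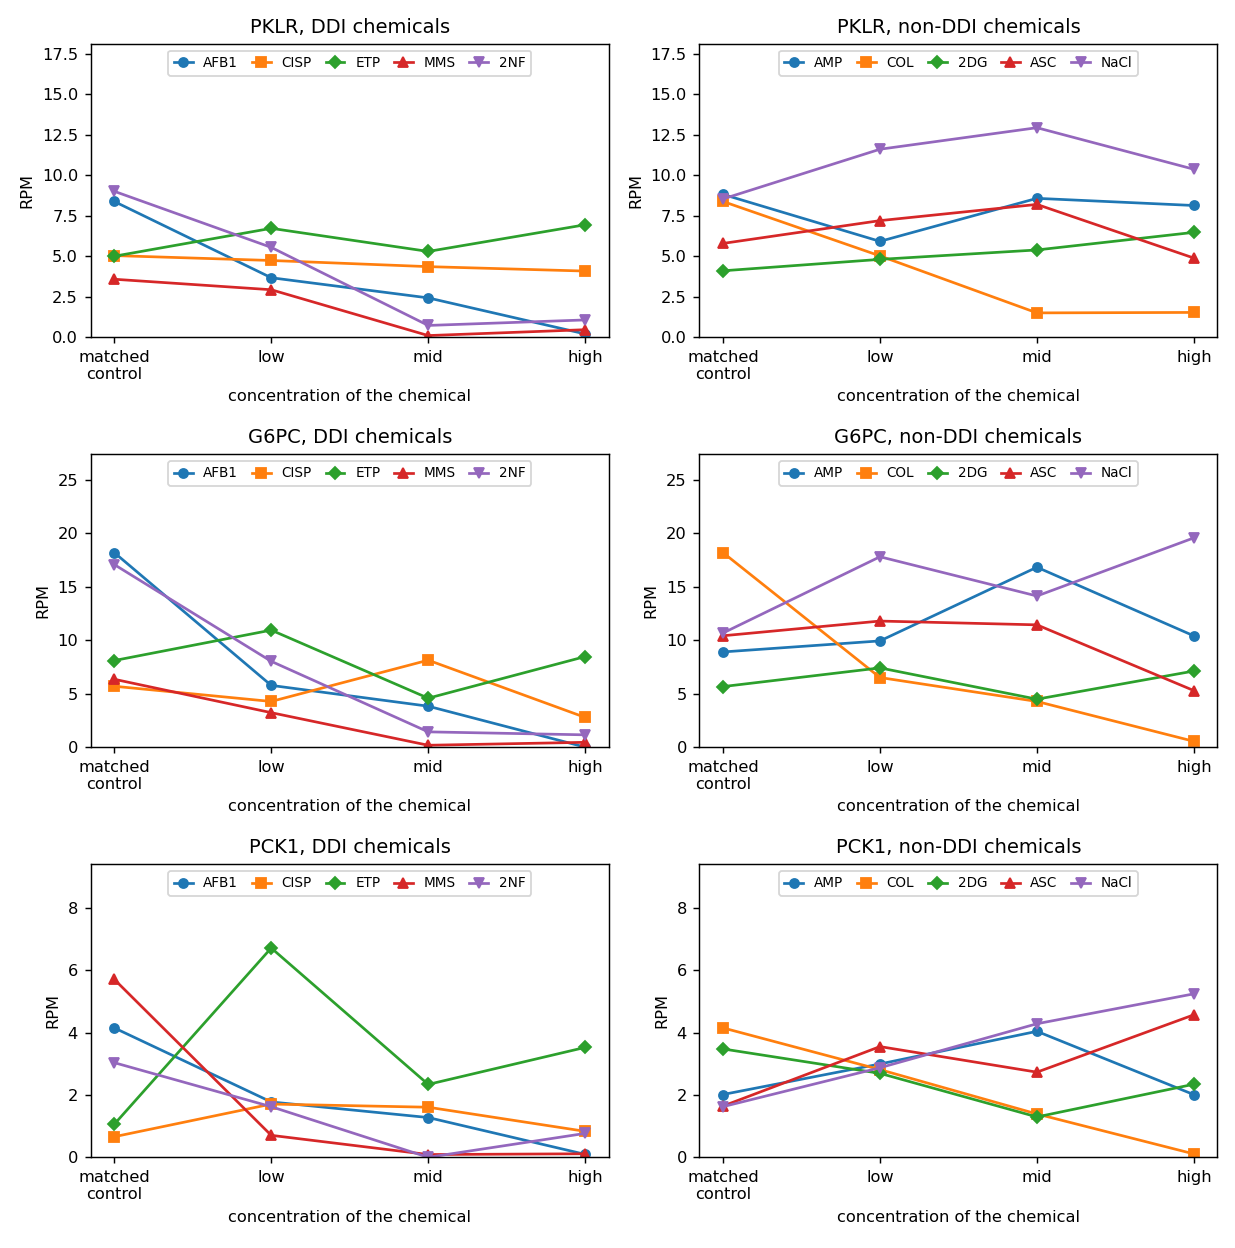
RPM of PKLR, G6PC and PCK1 (linear axes from 0) in the matched control and at the low, mid and high concentration of the 5 DDI chemicals (left) and the 5 non-DDI chemicals (right), 1 library per point. The AFB1, MMS, 2NF and COL lines of G6PC end between 0 and 1.15 RPM, and the others end at 2.78 RPM (CISP) or above.

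Other hepatocyte genes were lower in the same libraries. The 10 hepatocyte markers averaged a log2 ratio of -1.78 in AFB1 at 2.5 µM, -1.45 in MMS at 200 µM, -1.64 in 2NF at 250 µM and, with 0.3 µM COL, -1.44, and at least 9 of 10 were lower in each. In the other 6 chemicals at the high concentration the average lay between -0.30 (CISP) and 0.14 (NaCl). Their summed level was 4481 RPM at 100 µM MMS, the lowest of the 39 libraries, and 26000 to 50594 RPM in the controls. MLXIPL, the gene of ChREBP, was at -1.22 in AFB1, -0.97 in MMS, -1.41 in 2NF and -1.65 in COL at the high concentration. The median of the 17 other glycolysis enzymes lay between -0.25 and 0.00 in these 4 conditions. Of 10 other gluconeogenesis and glycogen genes, 1 was 2-fold lower in AFB1, none in MMS, 3 in 2NF and 3 in COL. At those conditions 3.07%, 5.71%, 3.33% and 4.64% of genes were 2-fold lower. Over the 30 conditions the correlation with the median of the hepatocyte markers was 0.906 for PKLR, 0.889 for G6PC and 0.818 for PCK1, and that between PKLR and G6PC was 0.937, as a description of libraries with shared controls. The genes most like PCK1 included RAPGEF4 (0.894), LIPG (0.886), CPED1 (0.882) and SUSD3 (0.872). The part of the hepatocyte markers in the lower levels of the 3 enzymes was not tested. For MMS the choice of scaling also matters, since the median of all genes at 200 µM was 0.0999 with RPM and -0.021 with TMM factors, a shift of 0.121.

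DDI and non-DDI chemicals, the 2 classes of the study, were compared at the high concentration. The paper classified each chemical with a biomarker and ran no test of differential expression. The edgeR difference was -1.99 for G6PC (SE 1.14), -1.53 for PCK1 (SE 1.22), -1.47 for PKLR (SE 0.816) and -0.51 for SLC2A1 (SE 0.266, adjusted p = 0.707, the smallest of the members). None of the 8 members tested was called by edgeR at an adjusted p under 0.05 or had an unadjusted p under 0.05, and none was called by DESeq2. Of 13602 genes, 7 (0.0515%) were called, all higher (0.0% lower), and 96 by DESeq2, with 1068 genes (7.85%) at an unadjusted p under 0.05. The classes overlapped for all 9 members, where 1.2% of genes did not overlap. Both classes held chemicals with and without low G6PC at the high concentration, since COL is non-DDI and ETP is DDI. Without COL the G6PC difference had its smallest adjusted p over the alternatives, 0.25. An exact permutation test (two-sided) of the log2 ratios of 5 against 5 chemicals at each of 3 concentrations gave 1 p under 0.05 in 27 tests, that of SLC2A2 at the mid concentration, the smallest p this test allows (exact p = 0.00794, adjusted p = 0.214, difference -0.23, lower in 5 of 5 DDI and 4 of 5 non-DDI chemicals). SLC2A2 had too few counts for a firm statement.

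Change with concentration was examined in a fit over all 30 treated libraries with the chemical as a block and 1 slope per concentration step, added after the values were seen. The slope was -0.53 per step for G6PC (SE 0.187, edgeR adjusted p = 0.136), -0.37 for PKLR (SE 0.159, adjusted p = 0.228), -0.36 for PCK1 (SE 0.178, adjusted p = 0.303) and -0.10 for LDHA (SE 0.0387, adjusted p = 0.177). Slopes were negative for 7 of the 8 members tested. None was called and 3 had an unadjusted p under 0.05 (G6PC, LDHA and PKLR), where 19 of 13536 genes (0.14%) were called, 9 higher (0.0665%) and 10 lower (0.0739%), and 2263 (16.7%) had an unadjusted p under 0.05. DESeq2 called 534 genes and none of the members, with adjusted p = 0.0558 for G6PC.

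SLC2A1, HK2 and LDHA, the members of proliferating or oxygen-poor cells, rarely reached 2-fold. SLC2A1 did so once, in NaCl at 10 mM, with 409 RPM against 196 RPM in the control, a log2 ratio of 1.06. At 1 and 2.5 mM NaCl it was at 233 and 239 RPM, inside the range of the media controls (196 to 257 RPM). At 10 mM, 0.407% of genes were 2-fold higher. Higher levels stood in CISP at 2 µM (457 RPM), where the control was at 472 RPM, and in 2NF at 50 µM (423 RPM against 227 RPM, a log2 ratio of 0.89). In MMS, SLC2A1 was at 231, 199 and 166 RPM against 315 RPM. Its lowest log2 ratio was -0.92 at 200 µM MMS, followed by -0.89 in CISP at 5 µM (254 RPM against 472 RPM). HK2, the hexokinase of growing tissue, was 2-fold higher once, in 2NF at 50 µM (3.03 RPM against 0.838 RPM, 34 and 8 counts), and lay at 2 to 34 counts throughout. In RPM it was also 2.88-fold higher in AFB1 at 0.25 µM (log2 ratio 0.96) and 2.34-fold lower in CISP at 10 µM, and its ratio in NaCl at 2.5 mM was 0.156 on 2 counts (95% interval 0.0166 to 0.7332). At 50 µM 2NF, 2.78% of genes were 2-fold higher. LDHA reached no 2-fold ratio and was the steadiest member, with ratios from -0.72 to 0.33. Its lowest levels were 583 and 537 RPM in MMS at 100 and 200 µM, against 884 RPM in the control.

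The list of 10 hypoxia-inducible factor targets outside glycolysis was set beside SLC2A1 and LDHA. In NaCl all 10 were higher than in the control at each concentration, with medians of 0.38, 0.30 and 0.79 at 1, 2.5 and 10 mM, all against the same control library. NDRG1 was at 269, 215 and 563 RPM against 101 RPM (media controls 101 to 194 RPM), and CA9, a carbonic anhydrase, was at 46.3 RPM at 10 mM against 15.7 RPM (media controls 15.2 to 27.2 RPM). PFKFB4, a regulator of glycolytic flux from another list, was at 25.3 RPM at 10 mM against 4.57 RPM. In MMS 9 of the 10 were lower at each concentration, with medians of -0.42, -0.57 and -0.53 and CA9 at 5.98 RPM at 200 µM against 25.9 RPM. In 2DG the medians were -0.09, -0.06 and -0.03. Over the 30 conditions the correlation with the list median was 0.636 for SLC2A1 and 0.515 for LDHA, a description over conditions that share controls. For HK2, which had low counts, it was -0.123, and between SLC2A1 and LDHA the correlation was 0.162. LDHA had a higher one, 0.792, with the median of the other 17 glycolysis enzymes.

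**Figure D4:**
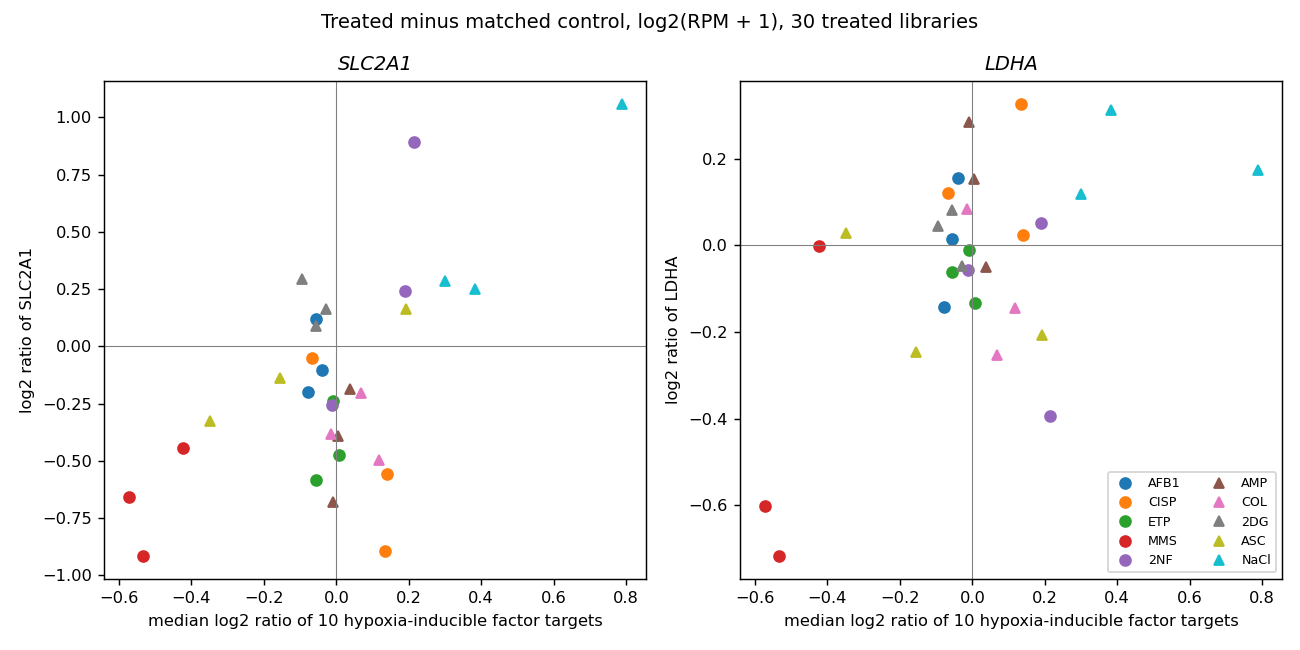
Log2 ratio of SLC2A1 (left) and LDHA (right) against the median log2 ratio of 10 hypoxia-inducible factor targets in the 30 treated libraries, each against its matched control. Circles are DDI and triangles non-DDI chemicals, coloured by chemical. NaCl at 10 mM is at the upper right for SLC2A1 (1.06 against 0.79), and MMS at 100 and 200 µM is at the lower left of both.

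Untreated libraries of the 2 main vehicles were compared as the only replicated groups of the series. Each control belonged to another chemical, and the p-values measure the spread between these libraries, which may be technical. LDHA was lower in the DMSO controls (757, 768, 851 and 856 RPM) than in the media controls (898, 972, 1035 and 1141 RPM). It was the only member without overlap, where 13.7% of genes did not overlap. The difference was -0.30 (SE 0.103, edgeR adjusted p = 0.121). SLC2A1 was at 227, 283, 365 and 472 RPM in DMSO and at 196, 202, 249 and 257 RPM in media, a difference of 0.60 (SE 0.199, edgeR adjusted p = 0.113), which passed in 1 of 13 alternatives, that without the DMSO control of 2NF (adjusted p = 0.0482, range 0.0482 to 0.305). ARRDC4 differed by 0.60 (SE 0.275, edgeR adjusted p = 0.243), and the other members tested had an edgeR adjusted p between 0.39 and 0.979. None of the 8 members tested was called by edgeR or DESeq2 (2 at an unadjusted p under 0.05), where 698 of 13053 genes were called by edgeR (5.35%), 217 higher (1.66%) and 481 lower (3.68%), with 2740 (21.0%) at an unadjusted p under 0.05 and 1144 called by DESeq2. Around them, 4 of 10 hepatocyte markers were higher in DMSO (among them CYP3A4 by 3.09, TTR by 1.55 and APOA1 by 0.82). Of the other lists, EGLN3 (-0.68) and CA9 (-2.58) among hypoxia-inducible factor targets were lower, and ARRDC3, an arrestin related to TXNIP, was higher by 0.71 (edgeR adjusted p = 0.0137). SPP1 was lower by 1.16 and SOX9 higher by 0.73 among cholangiocyte markers.

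The other genes of these pathways were taken from lists and counted in each comparison. In the comparison of 2DG with the media controls none of the tested genes of glycolysis (13 of 17), gluconeogenesis and glycogen (7 of 10), sugar and lactate transport (8 of 11), glucose sensing (14 of 14) and other carbohydrate response targets (15 of 18) was called by edgeR, with 5 at an unadjusted p under 0.05, and the list medians lay between -0.11 and 0.05, with 0.01 over all genes. GCKR, the inhibitor of glucokinase, was at -0.64, ACACB at -0.54 and SCD at -0.38, each with an unadjusted p under 0.05 and an adjusted p of 0.99. The 12 genes of the unfolded protein and amino acid stress response, tested because 2DG can interfere with protein glycosylation, had a median of -0.02 and none was called. Over concentration, ACACB, a fatty acid enzyme driven by ChREBP, was the only gene of these lists called (-0.29 per step, edgeR adjusted p = 0.0446), a call that is lost when 2DG, 2NF, AFB1, ASC, COL or MMS is left out, since no gene of the table was then called, with MLXIPL at -0.27 (adjusted p = 0.0584) and GCKR at -0.24 (adjusted p = 0.0644). Between DMSO and media controls PFKP (-0.87), ALDOA (-0.95) and ELOVL6 (-0.67) were called lower in DMSO, and PCK2 (0.78) and ARRDC3 (0.71) higher. In the other comparisons no gene of these lists was called.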

How the data were processed

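HepaRG™ cells were profiled by AmpliSeq RNA-seq, in which each gene is read through 1 amplicon. RNA of 3 cultures was pooled per library, and groups follow the sample labels. The authors aligned reads to the transcripts of the panel (hg19, per the labels) and deposited counts per target. A second table of RPM, made by the authors from these counts and the total of each library, was recomputed and differed by at most 0.000538. The 10 spike-in targets, all at 0, were left out.

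Log2 ratios were log2(RPM + 1) in a treated library minus its matched control, and 2-fold means an absolute log2 ratio of at least 1. Shares of all genes used those with a mean of at least 1 RPM. Counts were tested with edgeR 4.0.16 (quasi-likelihood test, TMM factors, low-count filter, Benjamini-Hochberg adjustment, threshold 0.05) in R 4.3.3. DESeq2 1.42.0, limma 3.58.1 on log2(RPM + 1), other scalings, filters, pseudocounts, controls and blocks, and leaving out libraries or chemicals, were alternatives. Exact permutation tests used scipy 1.17.1. Ratios resting on 1 to 3 counts carry 95% intervals, and 0 counts a floor of 3. All 9 genes were named, list genes where called, and the 5 genes most correlated with TXNIP, ARRDC4 and PCK1, except for a few genes that are not reported here. ACACB, MLXIPL, GCKR, SCD, NDRG1, CA9 and PFKFB4 were also named where their values were set beside a result, some after those values were seen. The 9 genes, the lists and the tests were chosen with earlier results of these data known. Scripts were tested on simulated data.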

Additional observations from a re-analysis of the deposited data

Results flagged for a closer look

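Within each class and concentration the log2 ratios of the 5 chemicals were searched for a value standing apart from the others by Dixon's criterion. The log2(RPM + 1) levels of the DMSO and the media controls were searched likewise. Of 72 groups tested, 5 held such a value, and chance alone gives about 5% of groups. In the DDI chemicals at the high concentration LDHA was at -0.7178 in MMS at 200 µM, with the other 4 chemicals between -0.1425 and 0.0237. Among the non-DDI chemicals at the low concentration, G6PC was at -1.3536 in COL at 0.05 µM (others 0.1429 to 0.688) and HK2 at 0.5475 in ASC at 1 mM (others -0.3276 to -0.0907). The G6PC level in that COL library, 6.51 RPM, lay inside the range of the DMSO controls (5.69 to 18.2 RPM). At the mid concentration PKLR was at -1.913 in COL at 0.1 µM (others -0.0363 to 0.5478) and SLC2A2 at 0.3933 in NaCl at 2.5 mM (others -0.1036 to -0.0459), the last on 9 counts.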

How the results depend on the processing

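Over 557 recalculated member differences, 528 kept direction and side of the threshold and 28 changed sign. The remaining 1 was newly called (SLC2A1 between DMSO and media controls without the DMSO control of 2NF). None of those that changed sign passed the threshold, and their causes were not tested. This count left out 2DG against the other 9 chemicals at the mid and low concentration, where signs also changed. Over the alternatives PKLR ran from -0.354 to 1.48 at the mid and from -0.599 to 0.512 at the low concentration. For G6PC the ranges were -1.05 to 0.865 and -0.447 to 0.963. With the vehicle as the block, 2DG against the other 9 chemicals at the high concentration became -0.225 for SLC2A2 (from 0.24), -0.107 for LDHA (from 0.08), -0.176 for PCK1 (from 0.02) and -0.0687 for G6PC (from 1.92). With limma on log2(RPM + 1), PCK1 between DMSO and media controls was -0.0996 (from 0.04). Leaving out 1 chemical gave ranges of -0.0279 to 0.125 for LDHA and -0.404 to 0.423 for PCK1 in that 2DG comparison, and of -0.0478 to 0.619 for TXNIP, -0.037 to 0.327 for ARRDC4 and -0.353 to 0.299 for HK2 between DDI and non-DDI chemicals. Leaving out 1 library gave -0.0109 to 0.414 for TXNIP and -0.284 to 0.235 for PCK1 between 2DG and media controls, and -0.332 to 0.0148 for HK2, -0.147 to 0.194 for PKLR and -0.512 to 0.361 for PCK1 between DMSO and media controls.

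Counts of called genes moved more, with 31 of 98 beyond 1.5 times. DESeq2 called 5 genes between 2DG and media controls (edgeR 0), 96 between DDI and non-DDI chemicals (7), 1144 between DMSO and media controls (698) and 534 over concentration (19). Between DDI and non-DDI chemicals 34 genes were called with no filter on low counts, 0 with the vehicle as the block, 170 in 1 fit of all 39 libraries, and 0 to 17 when 1 chemical was left out (0 without 2DG, 17 without MMS). Between DMSO and media controls 227 (without the CISP control) to 907 genes (without the AFB1 and COL control) were called, and over concentration 0 (without 2DG, 2NF, AFB1, ASC, COL or MMS) to 348 (without AMP or NaCl). Member values 2-fold higher than control numbered 17 with a pseudocount of 0.1, 3 against the mean control of the same vehicle and 2 against the mean of all 9 controls (7 as reported). No paired analysis was possible because each condition had 1 library and no replicate number to pair by, beyond the matched control set that the fits of treated and control libraries at a given concentration already held as a block. Low counts limit SLC2A2, HK2 and ARRDC4.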

Other observations

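Other isoenzymes of glycolysis had other values than PKLR in the same libraries, each from 1 library per condition and named after their values were seen. PKM, the pyruvate kinase of most tissues other than liver, was at 1.22 RPM in the shared control of AFB1 and COL and at 3.27 RPM in AFB1 at 2.5 µM and 3.58 RPM in COL at 0.3 µM, above the 4 DMSO controls (1.22 to 3.04 RPM). In 2NF at 250 µM it was at 4.89 RPM against 3.04 RPM, and in MMS at 200 µM at 1.58 RPM against 1.82 RPM. PFKP, the platelet form of phosphofructokinase, had the highest ratio of the 17 other glycolysis enzymes at all 3 concentrations of 2NF (0.76, 1.28 and 1.64) and of COL (0.50, 1.13 and 1.92), and also of CISP (0.83, 0.95 and 0.57), where PKLR was within 0.25 of its control. These levels are low for PKM, and no test of a single condition was possible.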
